A study of Homo sapiens with 12 samples.

Results

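Of 60675 gene rows counted in HSC-3 cells, 75 were nearly level between untreated cells and cells given cyclopiazonic acid, and higher once synta-66 was added to it. HSC-3 is a human oral squamous carcinoma cell line. The 12 libraries form 3 groups of 4: untreated cells, a group treated for 3 h with cyclopiazonic acid (CPA) at 25 µM, and a group that had the same CPA together with the ORAI inhibitor synta-66. The sources used here do not give the dose of synta-66, and synta-66 without CPA was not analysed here, so what synta-66 does by itself cannot be told apart from what it does in the presence of CPA. The labels number the samples of each group 1 to 4 but do not say that they were separate cultures, so each p-value measures the spread between these libraries, which may be technical.

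The rows were chosen on CPM, the reads of a row relative to the scaled gene reads of its library. A row had to reach a mean of 10 CPM over the 12 libraries, to have a CPA to untreated ratio of group means between 0.8 and its reciprocal, and to have a CPA + synta-66 to CPA ratio of at least 1.5. Of the 4533 rows with a mean of at least 10 CPM, 3098 lay in the CPA to untreated window and 80, or 1.76%, met all the conditions. Of these, 5 were left out by name: HSPA5, DNAJB11, HSP90B1 and CALR, all endoplasmic reticulum chaperones or co-chaperones, and the mitochondrial row MT-TM. SHMT2, also to be left out, did not reach the minimum level. All 3 contrasts among the groups therefore entered the choice, and the values of the 75 rows in them are a description without a test. The minimum level is a mean over all 12 libraries, so a row could reach it through the CPA + synta-66 group alone. ERFE, L3MBTL2, CEBPB, JTB, NRP1, TCOF1, GABPB1, ENSG00000243415 and ENSG00000261072 did so, with untreated and CPA means both under 10 CPM.

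CPA blocks the SERCA pump, which returns calcium to the endoplasmic reticulum. Emptying that store opens ORAI channels in the plasma membrane, and calcium enters the cell (store-operated calcium entry), which synta-66 inhibits. A store that stays empty disturbs protein folding and can start the unfolded protein response, in which the transcription factors ATF6, XBP1 and ATF4 raise chaperones, amino acid enzymes and tRNA synthetases. CEBPB, one of the 75 rows, is a transcription factor of the bZIP class that takes part in stress and inflammatory programmes.

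**Figure D1:**
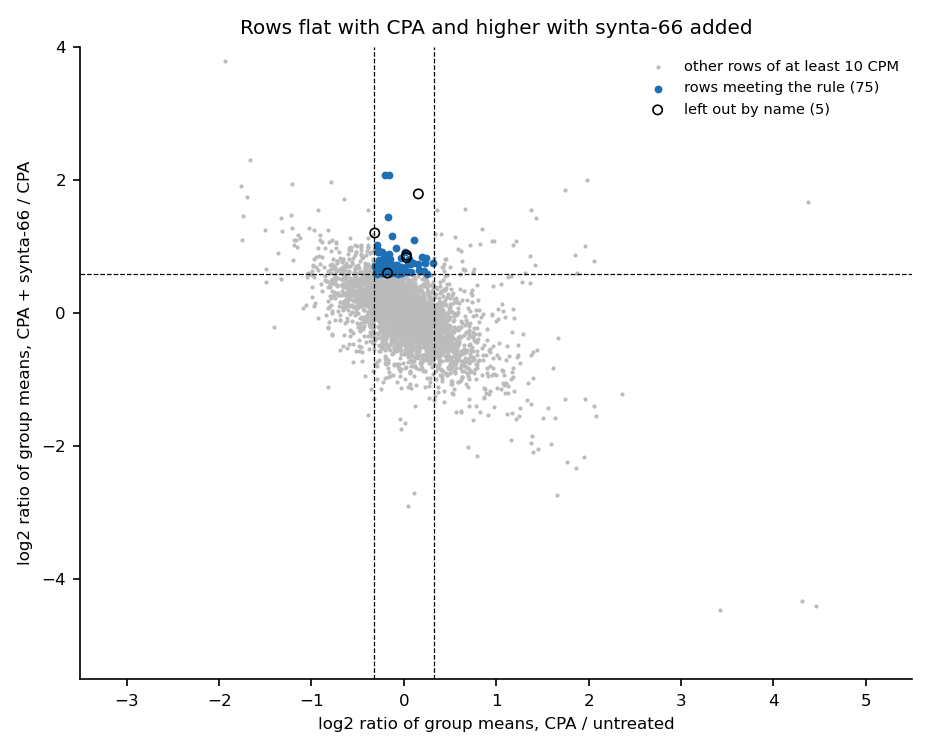
Log2 ratio of group means for CPA over untreated (x axis) and CPA + synta-66 over CPA (y axis), each point 1 of the 4533 rows with a mean of at least 10 CPM. Dashed lines mark the limits of the rule (0.8 and its reciprocal on x, 1.5 on y), filled blue points the 75 rows that meet it and open circles the 5 rows left out by name.

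Libraries differed in ways the groups do not explain. Gene rows held 2819486 to 5458858 reads, which were 3.59 to 9.40% of the uniquely placed reads. Mitochondrial ribosomal RNA took 53.5% of the gene reads in CPA + synta-66 sample 1, 49.4% in sample 4 and 39.6% in untreated sample 3, against 0.165 to 11.9% in the other 9. Samples 1 and 4 of the CPA + synta-66 group stand apart, so values are also given without them. All 11 squamous epithelial markers passed the filter on low counts, with summed levels of 7050 to 7640 CPM in untreated, 7130 to 8180 in CPA and 8020 to 8720 in CPA + synta-66 libraries. The rows opposite 3 of them, KRT8, KRT18 and CDH1, summed to 7120 to 7730, 7230 to 8320 and 8090 to 8840 CPM in the same order. Whether a few rows carry both sums was not examined. The fibroblast markers COL3A1, DCN, LUM and PDGFRB, the immune markers CD3E and MS4A1 and the endothelial marker KDR had no read. In the same 3 groups the summed level reached at most 1.3, 0.648 and 0.811 CPM for the 7 fibroblast genes, at most 8.80, 6.71 and 6.09 CPM for the 5 immune genes, and at most 0.293, 1.29 and 0.811 CPM for the 4 endothelial genes. All these are counts at the genes' own rows, and these 3 lists had no opposite row to read. Whether the strand setting of the counting matches the kit was not tested. The low counts therefore cannot show that such cells were absent.

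In the 75 rows the CPA + synta-66 to CPA ratio ran from 1.50 to 4.23, with a median of 1.66. It was at least 2 in 6 rows and between 1.5 and 1.6 in 27. The CPA to untreated ratio had a median of 0.894 and was below 1 in 58 of the 75. Over all rows of at least 10 CPM the median log2 ratio of CPA to untreated was 0.007. The CPA mean is also the denominator of the ratio that chose the rows. That choice favours low CPA means, so the tilt is read no further. Set against untreated cells, the CPA + synta-66 ratio ran from 1.23 to 3.74 with a median of 1.54. In 32 of the 75 it stayed under 1.5, so for these rows part of the ratio to CPA came from a level that was lower in CPA than in untreated cells. In bulk RNA a change in the share of cells that express a gene and a change in RNA per cell cannot be told apart.

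All 4 CPA + synta-66 libraries lay above all 8 others in 50 of the 75 rows, where 5.43% of the 4533 rows at this level did so. With samples 2 and 3 alone, 65 of the 75 lay above all 8, against a background of 11.3%. The quasi-likelihood test of edgeR, adjusted by Benjamini-Hochberg, called 54 of the 75 higher in CPA + synta-66 than in CPA (background 1.94% of 14911 rows) and 32 higher than in untreated cells (background 1.66%). It called 0 of the 75 between CPA and untreated (background 2.85%). These shares follow from the rule and are read no further. The median log2 level of the 75 rows over the untreated mean was nearly the same in each of the 4 CPA + synta-66 libraries, at 0.62 to 0.64, and was −0.21 to −0.08 in the 4 CPA libraries. The rows just inside the ratio of 1.5 were FAM227B (1.50003), SLC4A2 (1.50208) and ENSG00000267072 (1.50636), and those just outside were GAS2 (1.49947), TMEM44 (1.49932) and ACAP1 (1.4982).

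**Figure D2:**
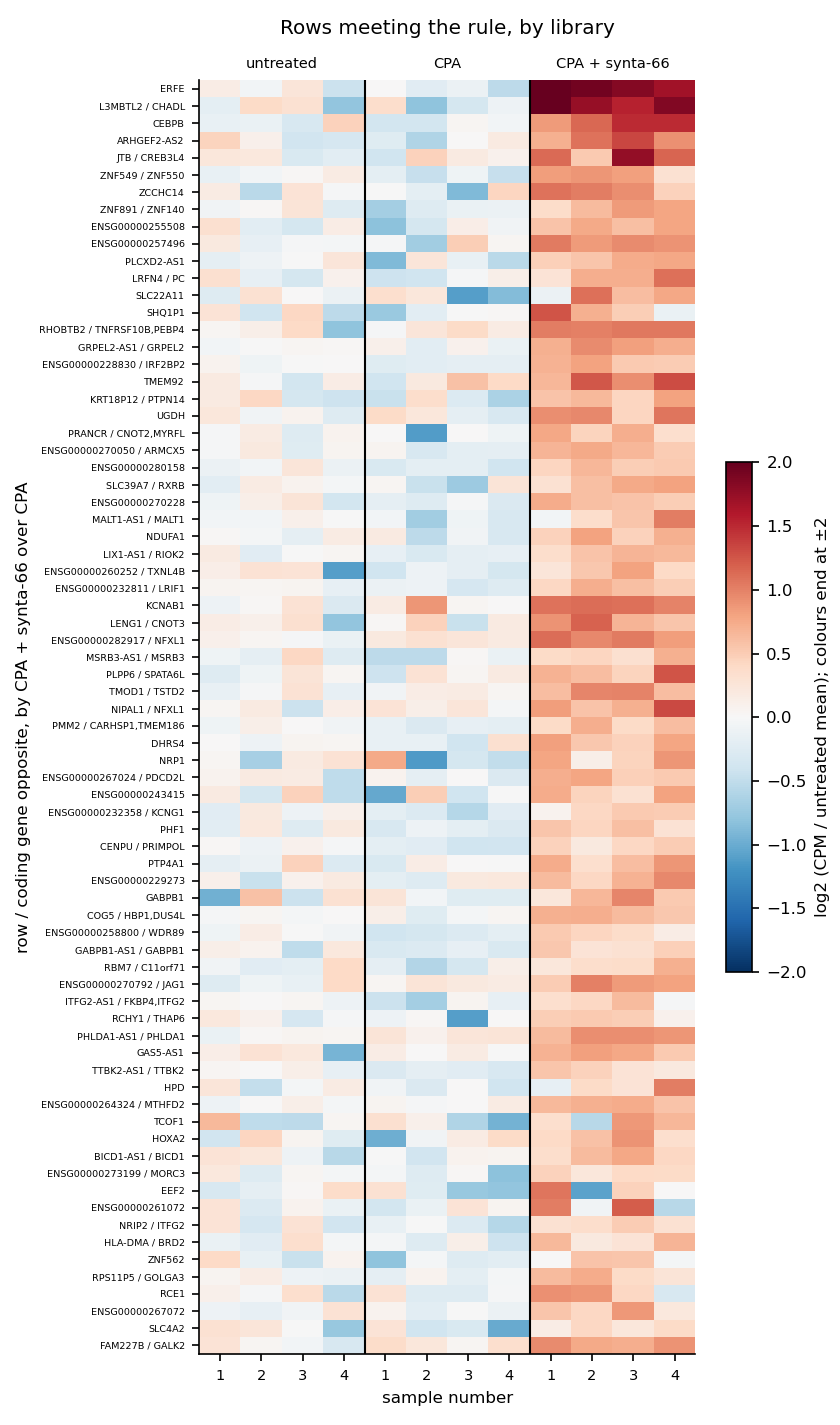
Log2 of each library's CPM over the untreated mean for 74 of the 75 rows (y axis, with the coding gene opposite after the slash, ordered by CPA + synta-66 over CPA) in the 12 libraries (x axis, by group and sample number). The CPA + synta-66 block is mostly red, with a median of 0.62 to 0.64 per library, and the CPA block is mostly pale or blue.

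The counting took strand into account, per the series' design text, and the library kit is not named there. Many of the 75 rows have exons of another gene on the opposite strand. By GENCODE 44 exons, 43 of the 75 rows (57.3%) share 30 bases or more with an exon of a coding gene on the opposite strand, against 69.6% of all rows with at least 10 CPM. A further 15 rows face noncoding exons only, and 17 face no exon. The rows comprise 42 coding genes, 26 long noncoding RNAs, 6 processed pseudogenes and 1 row with no entry in GENCODE 44. Whether the strand setting of the counting matches the kit was not tested. Where it does not, the reads of a row come from the gene opposite, and its CPM are not a level of the gene it is named for. Beside the low share of reads in gene rows given above, EEF2, an abundant translation factor, held 10.41 ± 2.25 CPM in untreated cells (SD, n = 4). A row is therefore called below by its own name, with the gene opposite beside it, and the roles given are those of the named gene.

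Promoter sequences are shown for 4 genes on which the description turns: ERFE and CEBPB, which had the largest and the third largest ratio, SLC39A7, a zinc transporter of the endoplasmic reticulum, and MTHFD2, the coding gene opposite the second most abundant row. They run from 250 bases before to 50 bases after the RefSeq start (GRCh38.p14, plus strand), and capitals mark the one motif found among those searched, an antioxidant response element on either strand.
ERFE, chr2:238158720-238159019: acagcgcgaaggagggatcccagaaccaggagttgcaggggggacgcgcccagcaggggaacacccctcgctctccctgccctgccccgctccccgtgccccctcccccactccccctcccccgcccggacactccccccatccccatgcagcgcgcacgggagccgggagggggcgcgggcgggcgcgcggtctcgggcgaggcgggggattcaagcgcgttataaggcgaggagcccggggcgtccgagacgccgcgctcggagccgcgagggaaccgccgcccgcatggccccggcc
CEBPB, chr20:50190333-50190632: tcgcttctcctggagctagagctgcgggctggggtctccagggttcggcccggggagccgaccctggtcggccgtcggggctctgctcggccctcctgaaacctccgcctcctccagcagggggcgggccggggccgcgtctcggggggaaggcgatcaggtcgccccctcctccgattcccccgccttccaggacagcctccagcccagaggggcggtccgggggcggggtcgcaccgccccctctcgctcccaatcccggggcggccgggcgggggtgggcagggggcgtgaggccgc
MTHFD2, chr2:74198365-74198664: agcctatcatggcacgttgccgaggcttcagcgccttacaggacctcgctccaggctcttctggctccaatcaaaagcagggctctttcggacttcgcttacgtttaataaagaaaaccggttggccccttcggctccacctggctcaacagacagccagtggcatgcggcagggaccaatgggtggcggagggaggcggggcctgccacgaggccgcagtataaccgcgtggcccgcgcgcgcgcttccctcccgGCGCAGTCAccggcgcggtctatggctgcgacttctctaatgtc
SLC39A7, chr6:33200617-33200916: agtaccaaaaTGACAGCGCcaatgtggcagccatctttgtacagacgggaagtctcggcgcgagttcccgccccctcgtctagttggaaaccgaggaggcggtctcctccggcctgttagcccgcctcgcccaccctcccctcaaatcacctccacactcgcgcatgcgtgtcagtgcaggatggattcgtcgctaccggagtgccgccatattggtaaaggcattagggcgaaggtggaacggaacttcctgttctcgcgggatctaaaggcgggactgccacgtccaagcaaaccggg

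Promoters of 42 of the 75 rows were found in the RefSeq table and searched on both strands for the same letters as all 27305 promoters in it. The C/EBP-ATF element of ATF4 target genes, TGATGNAA, was in 0 of the 42, against 3.67% of all. The endoplasmic reticulum stress element, CCAAT and CCACG with 9 bases between them, was in 0 (0.0806% of all), and the unfolded protein response element, TGACGTGG, was also in 0 (0.795%). The cyclic AMP response element, TGACGTCA, was in 3, those of RCE1, EEF2 and ZNF562 (7.14% against 1.98%). It shares its first 6 letters with the preceding motif. The antioxidant response element, TGACNNNGC, was in 9 (21.4% against 13.6%): SLC39A7, PHF1, LRFN4, RBM7, HPD, GABPB1-AS1, EEF2, ZNF562 and NDUFA1. Promoters of 38 coding genes opposite were searched in the same way. The C/EBP-ATF element was in 1 (SPATA6L, 2.63%), and the unfolded protein response element in 1 (PC, 2.63%). The endoplasmic reticulum stress element was in 0, and the cyclic AMP response element in 1 (TSTD2, 2.63%). The antioxidant response element was in 4 (10.5%): CREB3L4, MTHFD2, THAP6 and CNOT3. A match is a run of letters in the window, not a bound site.

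ERFE, erythroferrone, is a secreted hormone best known from red cell precursors, where it lowers hepcidin. Its row (ENSG00000178752, chromosome 2, 238158970 to 238168900, plus strand, no exon opposite) had the largest ratio of the 75. The untreated libraries held 9.58, 8.40, 10.3 and 6.45 CPM, the CPA libraries 8.77, 7.44, 7.98 and 6.04, and the CPA + synta-66 libraries 36.1, 33.1, 30.96 and 27.9. The treated group lay far above the others with no overlap, and the CPA mean of 7.56 ± 1.15 (SD, n = 4) became 32.01 ± 3.49 (SD, n = 4), a ratio of 4.23. Without samples 1 and 4 the ratio was 4.14. The untreated and CPA means were both under 10 CPM, so this row reached the minimum level through CPA + synta-66 alone.

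CEBPB (ENSG00000172216, chromosome 20, 50190830 to 50192668, plus strand) is a single-exon gene opposite which the noncoding CEBPB-AS1 lies. Its row held 8.12, 8.20, 7.19 and 12.3 CPM in untreated, 6.97, 6.98, 9.21 and 8.63 in CPA and 16.2, 19.8, 25.3 and 25.2 in CPA + synta-66 libraries. The mean went from 7.95 ± 1.15 (SD, n = 4) in CPA to 21.6 ± 4.43 (SD, n = 4), a ratio of 2.72, and 2.78 without samples 1 and 4. No CPA + synta-66 library fell into the range of the others.

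The noncoding row opposite, CEBPB-AS1, was not used in choosing the rows. It held 29.2 ± 9.63 CPM in untreated, 40.2 ± 5.17 in CPA and 70.7 ± 16.3 in CPA + synta-66 (SD, n = 4). The difference from CPA was 0.82 ± 0.17 (SE) on the log2 scale with an edgeR adjusted p of 0.000863, and from untreated cells 1.30 ± 0.18 (SE) with an edgeR adjusted p of 9e-07. Both rows of this locus were higher with synta-66. The adjusted p against CPA stayed between 4.38e-06 and 0.0148 in 21 alternative settings, CEBPB-AS1 being called in each. Scaling by total gene reads without mitochondrial rows was not among the 21.

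L3MBTL2, a chromatin protein of a Polycomb complex, lies opposite CHADL and the noncoding L3MBTL2-AS1 (ENSG00000100395, chromosome 22, 41205282 to 41231271, plus strand). Its row held 7.08, 10.6, 10.0 and 4.69 CPM in untreated, 10.3, 4.65, 6.34 and 7.55 in CPA and 41.4, 27.0, 23.6 and 29.2 in CPA + synta-66 libraries. The 4 treated libraries were all above the other 8, with sample 1 the highest, at a mean of 30.3 ± 7.74 (SD, n = 4) against 7.22 ± 2.39 (SD, n = 4). The ratio of 4.20 was 3.43 without samples 1 and 4. The rows opposite differed little from CPA: CHADL by 0.02 ± 0.16 (SE) with an edgeR adjusted p of 0.973, and L3MBTL2-AS1 by 0.13 ± 0.10 (SE) with an edgeR adjusted p of 0.525, on the log2 scale.

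ARHGEF2-AS2, a noncoding row (ENSG00000273002, chromosome 1, 155978799 to 155982986, plus strand), has no exon opposite in the annotation. The untreated libraries held 28.3, 22.2, 15.9 and 16.4 CPM, the CPA libraries 17.6, 13.7, 20.9 and 23.5, and the CPA + synta-66 libraries 34.1, 43.9, 52.1 and 39.2. The CPA + synta-66 libraries lay above all 8 others, while untreated and CPA libraries overlapped, and the ratio to CPA was 2.24 at means of 18.9 ± 4.24 and 42.3 ± 7.66 (SD, n = 4).

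JTB, a small transmembrane protein, lies opposite CREB3L4, a membrane-anchored bZIP transcription factor (ENSG00000143543, chromosome 1, 153974269 to 153977674, minus strand). Its row held 9.58, 9.40, 6.56 and 7.03 CPM in untreated, 6.19, 11.2, 9.21 and 8.63 in CPA and 17.9, 11.7, 27.5 and 18.3 in CPA + synta-66 libraries. The lowest treated library was just above the highest CPA library, and the ratio was 2.14. The row of CREB3L4 itself went from 29.0 ± 3.09 to 33.6 ± 6.06 CPM (SD, n = 4), 0.20 ± 0.17 (SE) on the log2 scale with an edgeR adjusted p of 0.607. SLC39A1, a zinc importer whose row also faces CREB3L4, went from 19.4 ± 1.48 to 30.01 ± 4.92 CPM (SD, n = 4), 0.64 ± 0.19 (SE) with an edgeR adjusted p of 0.0248. That call was lost in 4 of 21 alternative settings, without CPA sample 2 or 4 or CPA + synta-66 sample 2 or 3, and its adjusted p ran from 0.015 to 0.101. Scaling by total gene reads without mitochondrial rows was not one of the 21.

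A pair of zinc finger genes opposite other zinc finger genes came next. ZNF549, opposite ZNF550 (ENSG00000121406, chromosome 19, 57527325 to 57557542, plus strand), held 39.1, 41.4, 43.8 and 48.3 CPM in untreated libraries, 37.7, 31.4, 40.7 and 31.5 in CPA and 77.1, 80.0, 75.9 and 53.5 in CPA + synta-66. Sample 4 was the low one, though still above all 8 others, and the ratio was 2.03. ZNF891, opposite ZNF140 (ENSG00000214029, chromosome 12, 133104779 to 133130274, minus strand), held 65.2, 69.6, 82.2 and 57.1 CPM in untreated libraries, 42.8, 57.2, 62.4 and 63.5 in CPA and 88.0, 106, 124 and 118 in CPA + synta-66. Its ratio was 1.93, again without overlap. ZNF550 and ZNF140 had edgeR adjusted p of 0.298 and 0.476 at their own rows.

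ZCCHC14, a CCHC zinc finger protein (ENSG00000140948, chromosome 16, 87406246 to 87493024, minus strand), faces no exon. Its libraries held 13.1, 8.001, 14.1 and 11.4 CPM in untreated, 11.6, 10.2, 6.34 and 15.8 in CPA and 24.8, 23.7, 22.1 and 16.1 in CPA + synta-66. The ratio of means was 1.97. Sample 4 of the treated group lay only just above CPA sample 4.

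**Figure D3:**
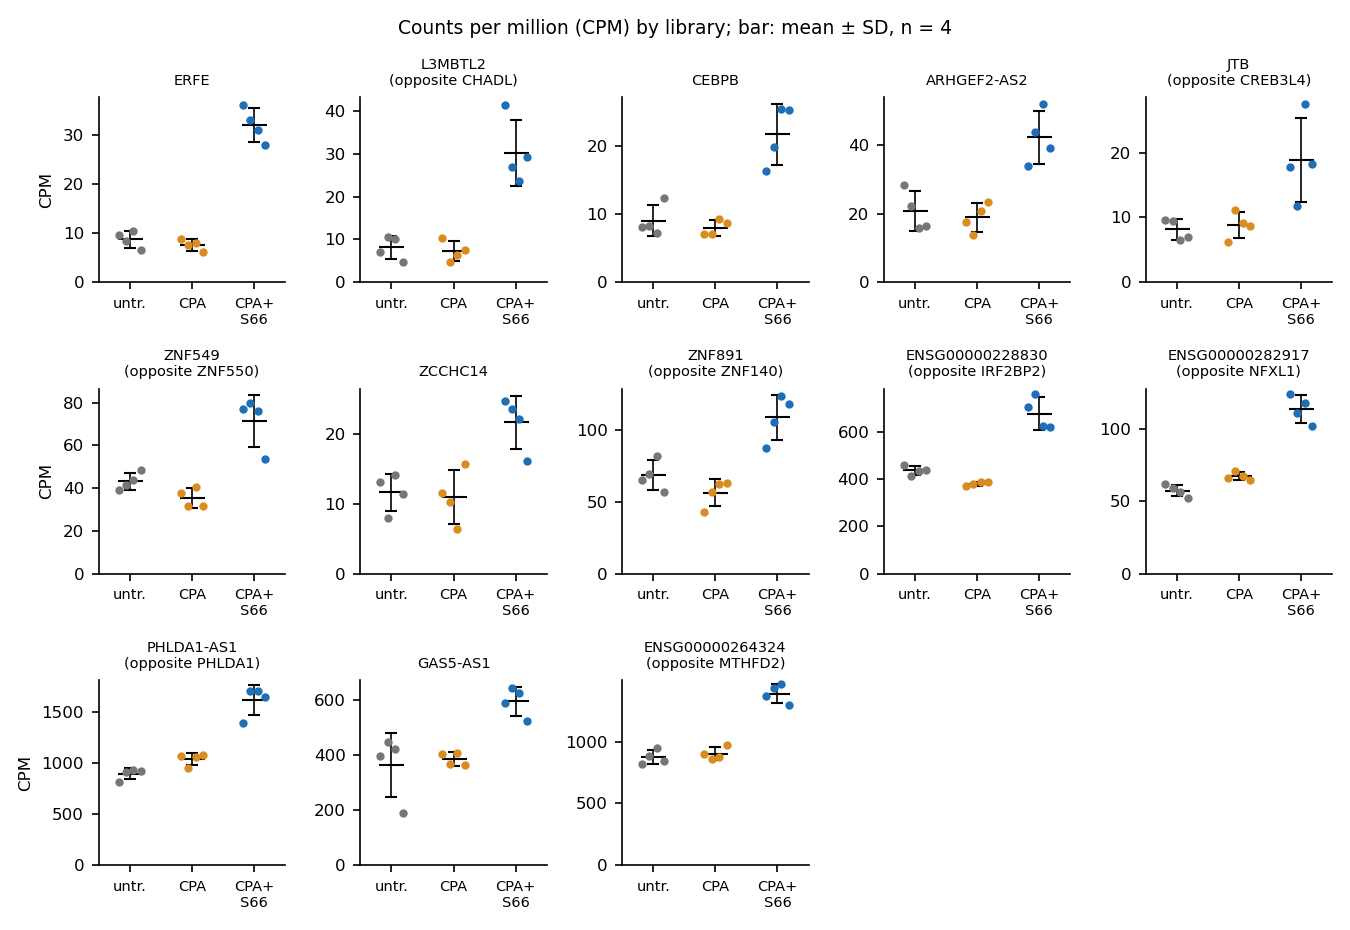
CPM (y axis, from 0) in each library of the untreated, CPA and CPA + synta-66 groups for the 13 rows described in full; points are libraries and bars the mean ± SD (n = 4). In each panel the 4 CPA + synta-66 points lie above the other 8.

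The most abundant of the 75 rows was PHLDA1-AS1 (ENSG00000257453, chromosome 12, 76030494 to 76031378, plus strand), a noncoding row opposite PHLDA1, a pleckstrin homology-like protein. Its libraries held 817, 913, 934 and 915 CPM in untreated, 1066, 949, 1060 and 1074 in CPA and 1394, 1699, 1707 and 1647 in CPA + synta-66. CPA libraries were already all above the untreated ones, and the treated libraries all above both. The means were 895 ± 52.7, 1037 ± 59.1 and 1612 ± 147 (SD, n = 4), a ratio of 1.55 to CPA and 1.80 to untreated.

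PHLDA1's own row is far lower per kilobase of exon (8.85 CPM per kb against 1572 in untreated cells) and was not used by the rule. It held 52.4 ± 8.34 CPM in untreated, 35.6 ± 10.3 in CPA and 59.5 ± 7.06 in CPA + synta-66 (SD, n = 4). The difference from CPA was 0.74 ± 0.16 (SE) on the log2 scale with an edgeR adjusted p of 0.00137, and the difference from untreated cells 0.18 ± 0.16 (SE) with an edgeR adjusted p of 0.676. It was called against CPA in all 21 alternative settings, with adjusted p from 4.85e-05 to 0.0378. The 21 did not include scaling by total gene reads without mitochondrial rows.

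ENSG00000264324, annotated as a coding gene on the minus strand (chromosome 2, 74211604 to 74363377), faces MTHFD2, the mitochondrial folate enzyme induced by ATF4. Its libraries held 816, 883, 948 and 848 CPM in untreated, 904, 860, 879 and 977 in CPA and 1368, 1434, 1466 and 1298 in CPA + synta-66. Untreated and CPA libraries overlapped, and the 4 treated libraries lay above both, at 1392 ± 74.4 against 905 ± 51.2 (SD, n = 4), a ratio of 1.54. MTHFD2's own row held 1.59 ± 1.63 CPM in CPA and 2.88 ± 0.504 in CPA + synta-66 (SD, n = 4), and the difference was not detectable at this depth (edgeR adjusted p 0.609). SLC4A5, whose row also faces MTHFD2, went from 436 ± 29.2 to 569 ± 33.3 CPM (SD, n = 4), 0.38 ± 0.08 (SE) on the log2 scale with an edgeR adjusted p of 0.000581, which is under the 1.5-fold limit.

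ENSG00000228830 (chromosome 1, 234607008 to 234609483, plus strand) is a noncoding row opposite IRF2BP2, a transcriptional corepressor. Its libraries held 461, 413, 434 and 440 CPM in untreated, 369, 379, 387 and 386 in CPA and 704, 763, 626 and 619 in CPA + synta-66. All CPA libraries were below all untreated ones and all treated libraries above, with a ratio of 1.78 to CPA and 1.55 to untreated. IRF2BP2's own row held 2.72 ± 1.80 CPM in CPA and 5.196 ± 0.419 in CPA + synta-66 (SD, n = 4; edgeR adjusted p 0.364).

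GAS5-AS1 (ENSG00000270084, chromosome 1, 173862473 to 173863941, plus strand) faces GAS5, a noncoding host gene of small nucleolar RNAs. Its libraries held 398, 446, 421 and 191 CPM in untreated, 405, 367, 408 and 363 in CPA and 587, 644, 625 and 523 in CPA + synta-66. Untreated sample 4 was the low library, and the ratio was 1.54 to CPA and 1.63 to untreated. GAS5's own row held 2.83 ± 1.35 CPM in untreated, 1.91 ± 0.762 in CPA and 0.985 ± 0.729 in CPA + synta-66 (SD, n = 4; edgeR adjusted p against CPA 0.52).

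ENSG00000282917 (chromosome 4, 47831330 to 47907534, plus strand) is a noncoding row opposite NFXL1, a zinc finger protein. It was among the rows farthest above untreated in relation to the spread, with 61.6, 59.0, 56.6 and 52.2 CPM in untreated, 65.8, 70.9, 67.7 and 65.0 in CPA and 124, 111, 118 and 102 in CPA + synta-66 libraries. The 3 groups did not overlap. NIPAL1, a magnesium transporter 6.61 kb away on the same strand and also opposite NFXL1, was another of the 75 rows, at a ratio of 1.67. NFXL1's own row differed from CPA by 0.20 ± 0.29 (SE) on the log2 scale (edgeR adjusted p 0.802).

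Among other rows with metabolic, transport or secretory roles, UGDH, which makes UDP-glucuronate and faces UGDH-AS1, went from 14.6 ± 3.34 to 25.7 ± 4.67 CPM (SD, n = 4), a ratio of 1.76. SLC39A7, opposite the nuclear receptor RXRB, went from 25.9 ± 7.78 to 44.9 ± 6.77 (SD, n = 4), a ratio of 1.73. SLC22A11, an organic anion transporter that faces no exon, went from 9.88 ± 4.75 to 18.1 ± 5.80 (SD, n = 4), but treated sample 1 lay within the range of the others. PMM2, phosphomannomutase of N-glycosylation, had a ratio of 1.66, and COG5, a subunit of the Golgi tethering complex, 1.599. COG5 was among the 6 most abundant rows, at 228 ± 23.6 in CPA and 365 ± 20.8 in CPA + synta-66 (SD, n = 4), and faces HBP1 and DUS4L. NDUFA1, a subunit of mitochondrial complex I, went from 52.7 ± 11.2 to 90.6 ± 11.4 (SD, n = 4). Each of these except SLC22A11 lay above all 8 other libraries in all 4 treated ones.

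RHOBTB2, which lies opposite TNFRSF10B and PEBP4, had the smallest coefficient of variation of the 75 rows in the treated group, 1.72%. It went from 65.2 ± 7.79 in CPA to 117 ± 2.00 CPM in CPA + synta-66 (SD, n = 4), a ratio of 1.79 to CPA and 2.05 to untreated. The row of TNFRSF10B, a TRAIL death receptor, held 8.14 ± 2.10 CPM in CPA and 3.64 ± 1.64 in CPA + synta-66 (SD, n = 4; edgeR adjusted p 0.0866). LRFN4, a synaptic adhesion protein, had a ratio of 1.86 with treated libraries that overlapped the others, and faces PC, pyruvate carboxylase. PC's own row was 0.48 ± 0.08 (SE) lower on the log2 scale than in CPA, with an edgeR adjusted p of 5.8e-05, and 0.39 ± 0.08 (SE) lower than in untreated cells, with an edgeR adjusted p of 0.0018, both under the 1.5-fold limit. RCE1, a protease of prenylated proteins at a ratio of 1.51, lies 10.1 kb from LRFN4.

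The remaining rows of the 25 highest ratios were mostly noncoding. ENSG00000255508, annotated as coding, had a ratio of 1.89, as did the noncoding ENSG00000257496 (opposite SLC38A4-AS1) and PLCXD2-AS1, which faces no exon. GRPEL2-AS1, opposite GRPEL2, a nucleotide exchange factor of the mitochondrial chaperone, went from 58.3 ± 6.42 to 104 ± 7.99 CPM (SD, n = 4), a ratio of 1.78. The membrane protein gene TMEM92 had a ratio of 1.77 to CPA and 2.09 to untreated. PRANCR, opposite CNOT2 and MYRFL, and ENSG00000270050, opposite ARMCX5, both had a ratio of 1.75. ENSG00000280158, the row with no GENCODE 44 entry and so no position here, went from 164 ± 11.1 to 286 ± 20.5 CPM (SD, n = 4).

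Processed pseudogenes may draw reads from their parent genes, and how the counting divided such reads was not tested, so these rows are uncertain. SHQ1P1 had a ratio of 1.83 with overlapping groups, and KRT18P12, opposite PTPN14, 1.76. ENSG00000270228 (opposite UBA6-DT) had 1.73, ENSG00000229273 (opposite GLIDR) 1.61, ENSG00000261072 1.52 and RPS11P5 (opposite GOLGA3) 1.51. DHRS4, a short-chain reductase with near-identical neighbours, is uncertain for the same reason.

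The other pairs of a row and the coding gene opposite are as follows. Noncoding rows were MALT1-AS1 opposite MALT1, LIX1-AS1 opposite RIOK2, ENSG00000260252 opposite TXNL4B, ENSG00000232811 opposite LRIF1, MSRB3-AS1 opposite MSRB3 and ENSG00000267024 opposite PDCD2L. ENSG00000232358 faces KCNG1, ENSG00000258800 faces WDR89, GABPB1-AS1 faces GABPB1, ENSG00000270792 faces the Notch ligand gene JAG1, and ITFG2-AS1 faces FKBP4 and ITFG2. TTBK2-AS1 lies opposite TTBK2, BICD1-AS1 opposite BICD1 and ENSG00000273199 opposite MORC3. Coding rows were LENG1 opposite CNOT3, PLPP6 opposite SPATA6L, the actin-capping TMOD1 opposite TSTD2, PMM2 opposite CARHSP1 and TMEM186, CENPU opposite PRIMPOL and RBM7 opposite C11orf71. RCHY1 faces THAP6, NRIP2 faces ITFG2, HLA-DMA faces BRD2 and FAM227B faces GALK2. Their ratios to CPA lay between 1.50 and 1.73. GABPB1, a subunit of a nuclear respiratory factor, and GABPB1-AS1 were both among the 75, at 1.602 and 1.58.

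**Figure D4:**
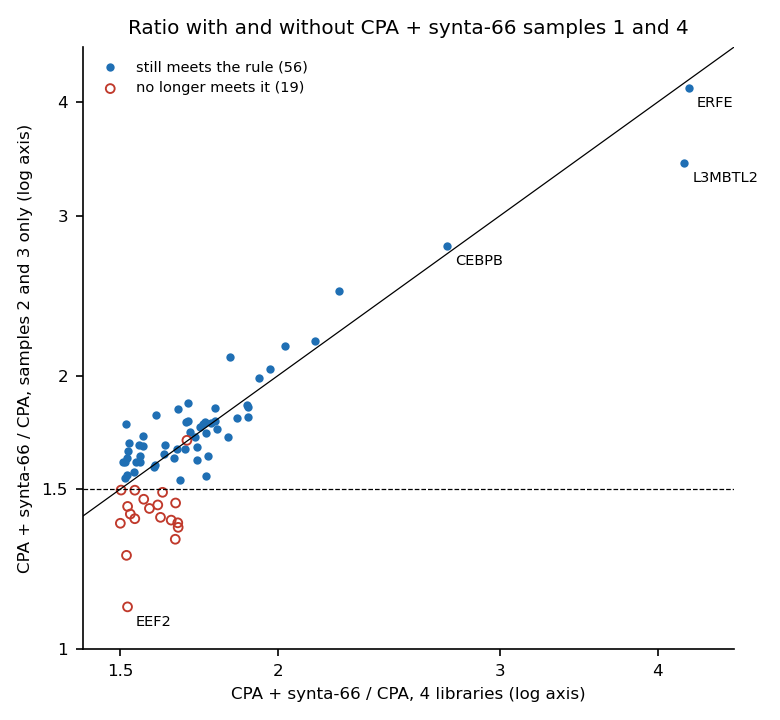
Ratio of CPA + synta-66 to CPA with 4 treated libraries (x axis, log) and with samples 2 and 3 only (y axis, log), 1 point per row of the 75. The solid line marks equal ratios and the dashed line 1.5; 56 filled points still meet the rule and 19 open ones do not.

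Without CPA + synta-66 samples 1 and 4 all 75 rows stayed above CPA, at ratios of 1.113 to 4.14 with a median of 1.66. The whole rule was met by 56 of the 75, and 59 other rows met it in addition, 115 in all. Of the 19 lost, 18 fell under the ratio of 1.5. The lowest was EEF2, the translation elongation factor, at 1.113, followed by the antigen-loading gene HLA-DMA at 1.27, the semaphorin and VEGF coreceptor NRP1 at 1.32, PLPP6 at 1.36 and NIPAL1 at 1.38. FAM227B was at 1.38, ENSG00000243415 and HPD, an enzyme of tyrosine breakdown, were at 1.39, and PTP4A1, a phosphatase, was at 1.396. TCOF1, a nucleolar protein of ribosomal RNA synthesis, was at 1.41, GABPB1-AS1 at 1.43, ENSG00000229273 and ENSG00000273199 at 1.44 and DHRS4 at 1.45. RBM7, an RNA-binding adaptor of the nuclear exosome, was at 1.46, CENPU, a centromere protein, at 1.49, and TTBK2-AS1 and the anion exchanger gene SLC4A2 just under the limit, at a rounded 1.50. The last, KCNAB1, a potassium channel subunit, kept a ratio of 1.70 but its CPA to untreated ratio became 1.26. EEF2 held 21.9, 4.96, 14.3 and 10.4 CPM in the 4 CPA + synta-66 libraries, so samples 1 and 2 were the highest and the lowest of all 12 for this row.

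Leaving out each of the 12 libraries in turn kept 29 of the 75 in the rule every time, and 27 of these also met it without samples 1 and 4 together. Among the 27 were ERFE, CEBPB, ARHGEF2-AS2, JTB, ZCCHC14, LRFN4, GRPEL2-AS1, ENSG00000228830, UGDH, PRANCR, NDUFA1, TMOD1, PMM2, PHF1, a Polycomb accessory protein, COG5, ENSG00000282917, PHLDA1-AS1, GAS5-AS1 and ENSG00000264324. Of the 27, 21 were at least 1.5 times the untreated level. In 26 all 4 CPA + synta-66 libraries lay above the other 8, where 5.43% of the 4533 rows did so. The 27 were picked by applying the rule repeatedly to the same values, so these counts follow from the choice and are read no further. L3MBTL2 is not among them, since without untreated sample 4 or CPA sample 1 its CPA to untreated ratio left the window.

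The scaling set how many rows met the rule. Under the scaling used, the median row of at least 10 CPM had a log2 ratio of CPA + synta-66 to CPA of 0.02. Scaling by the total of gene reads without mitochondrial rows moved it to −0.16, and 39 rows met the rule, of which 29 were among the 75. Taken relative to that median, 81 rows met it, of which 65 were among the 75. All 75 stayed above CPA under this scaling, at ratios of 1.30 to 3.71 with a median of 1.44, but only 30 kept at least 1.5.

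The rows opposite were not used by the rule, but they are not independent of the 75 rows. They come from the same libraries with the same CPA group as reference, and they share exon bases with the rows they face. Whether the strand setting kept the reads of the 2 strands apart was not tested. Of 45 coding rows opposite one of the 75 and not themselves among them, 38 passed the filter on low counts. In CPA + synta-66 against CPA, edgeR's test called 3 of the 38 higher and 0 lower, where 1.94% of all rows tested were called higher and 2.82% lower, and 7 had an unadjusted p under 0.05. Of the 38, 24 had a positive difference, with a median log2 fold change of 0.14, while that of all 14911 rows was −0.04 and 47.4% were positive. Against untreated cells, edgeR called 0 of the 38 (background 2.9% in either direction) and DESeq2 also 0, with 3 at an unadjusted p under 0.05 in edgeR. The coding row was lower per kilobase than the row it faced in 29 of 40 pairs in untreated cells, and under 0.1 times its level in 18 pairs, so many of these differences rest on few reads.

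The 3 coding rows called higher were PHLDA1, described above, CARHSP1 and PRIMPOL. CARHSP1, a calcium-regulated RNA-binding protein opposite PMM2, held 19.5 ± 3.05 CPM in untreated, 13.1 ± 3.19 in CPA and 26.0 ± 5.69 in CPA + synta-66 (SD, n = 4). It was 1.00 ± 0.22 (SE) higher than in CPA on the log2 scale, with an edgeR adjusted p of 0.00179 that stayed between 0.000511 and 0.0256 in 21 alternative settings. Scaling by total gene reads without mitochondrial rows was not among these settings for any of the 3. PRIMPOL, a primase-polymerase opposite CENPU, held 123 ± 25.8 CPM in untreated, 89.4 ± 6.52 in CPA and 137 ± 9.81 in CPA + synta-66 (SD, n = 4). It was 0.62 ± 0.12 (SE) higher than in CPA with an edgeR adjusted p of 0.000229. The difference fell under the 1.5-fold limit in 4 of 21 settings: 0.58 without CPA sample 2, 0.58 without CPA + synta-66 sample 1, 0.51 without samples 1 and 4 and 0.51 with untreated sample 3 left out as well, with adjusted p of 5.6e-06 to 0.0207 over all settings. None of the 3 was called against untreated cells. With CPA alone against untreated cells the log2 differences were −0.56 ± 0.16 (SE) for PHLDA1, −0.45 ± 0.12 (SE) for PRIMPOL and −0.57 ± 0.22 (SE) for CARHSP1. Their edgeR adjusted p were 0.028, 0.0122 and 0.156, and all were under the 1.5-fold limit. Part of each difference from CPA therefore came from a level that was lower in CPA than in untreated cells.

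Of 23 noncoding rows opposite, 15 were tested. CEBPB-AS1 was called higher in both comparisons, 0 were called lower, and the median log2 fold change against CPA was −0.02. Below the fold limit, ENSG00000238258, opposite NRP1, went from 263 ± 14.5 to 335 ± 8.81 CPM (SD, n = 4; 0.35 ± 0.08 (SE) on the log2 scale, edgeR adjusted p 0.00229), and ENSG00000260350, opposite PMM2, from 139 ± 15.3 to 182 ± 15.7 (SD, n = 4; 0.39 ± 0.10 (SE), edgeR adjusted p 0.00866). A last class is other rows that face the same coding gene, 12 in all and 10 tested. In it 9 of 10 had a positive difference from CPA, with a median of 0.43, and SLC39A1 was called. ENSG00000273010, the other row opposite LRIF1, went from 81.7 ± 13.2 to 120 ± 7.66 CPM (SD, n = 4; 0.56 ± 0.11 (SE), edgeR adjusted p 0.000676), under the fold limit. ENSG00000263756, the other row opposite BRD2, was called against untreated cells (0.74 ± 0.07 (SE) on the log2 scale, edgeR adjusted p 4.44e-10) and differed from CPA by less than the fold limit (0.33 ± 0.07 (SE), edgeR adjusted p 0.00195).

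**Figure D5:**
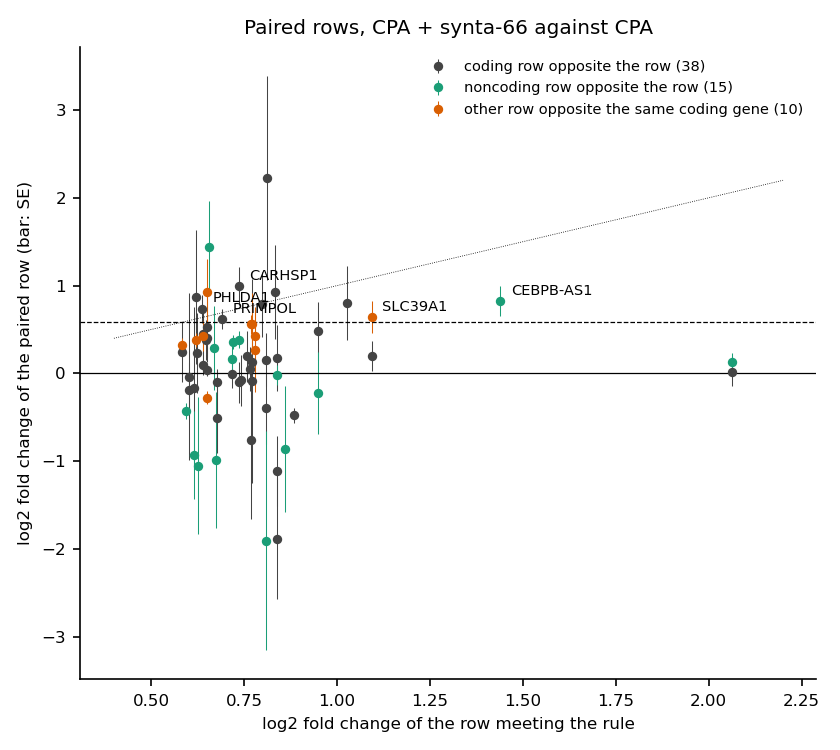
Log2 fold change in CPA + synta-66 against CPA of each row of the 75 (x axis) and of the paired rows tested (y axis, bar: SE), which are coding rows opposite (38), noncoding rows opposite (15) and other rows opposite the same coding gene (10). The dashed line marks 1.5-fold and the dotted line equal change; names mark the 5 paired rows called, and most points lie well below the dotted line.

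Pathway lists set the 75 rows in context. In the ATF4 and CHOP stress response, 3 of 21 genes tested were called higher in CPA + synta-66 than in CPA and 0 lower, where 1.94% of all rows were called higher and 2.82% lower. They were CEBPB, which the rule chose for this difference, so that its call is no separate evidence, the secreted glycoprotein STC2 and the amino acid transporter subunit SLC3A2. STC2 held 7.57 ± 2.14 CPM in untreated, 6.16 ± 0.695 in CPA and 13.1 ± 2.69 in CPA + synta-66 (SD, n = 4; edgeR adjusted p 0.0222 against CPA and 0.169 against untreated). SLC3A2 held 8.84 ± 2.88, 6.40 ± 2.19 and 13.1 ± 2.12 in the same order (SD, n = 4; edgeR adjusted p 0.0342 and 0.405). Against untreated cells 1 of the 21 was called, CEBPB itself, where 1.66% of all rows were called higher. The median log2 fold change over the 21 genes was 0.63, against −0.04 over all rows tested. At the rows opposite, 2 of 8 were called higher, those of CEBPB and of the cystine transporter SLC7A11, and the median was 0.00474. Against untreated cells 3 of the 8 were called higher, those of VLDLR, CEBPB and SLC7A11, with a median of 0.32. That of VLDLR was also called higher with CPA alone. SLC7A11-AS1 went from 125 ± 3.42 to 367 ± 40.7 CPM (SD, n = 4; 1.55 ± 0.10 (SE), edgeR adjusted p 6.97e-16), but fell with CPA alone and so is not one of the 75.

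In amino acid synthesis and tRNA synthetases, 4 of 25 were called higher than in CPA and 0 lower, with a median of 0.72 (all rows 1.94% higher and 2.82% lower). The same comparison with untreated cells also called 4 of 25 higher (all rows 1.66%), with a median of 0.25. Those called against CPA were SHMT2, a mitochondrial serine enzyme (17.4 ± 3.48 CPM in CPA + synta-66, 5.61 ± 1.42 in CPA, SD, n = 4; edgeR adjusted p 0.000307), and the synthetases SARS1, WARS1 and MARS1. SHMT2 was named beforehand as a row to leave out, so its calls in both comparisons are no separate evidence. The row of MARS1 lies opposite DDIT3, and which of the genes its reads came from was not tested. At the 12 rows opposite that were tested, the row called against CPA was ENSG00000264324 opposite MTHFD2, which the rule chose for this difference. No other of the 12 was called against CPA. Against untreated cells 3 of the 12 were called higher, those opposite MTHFD2, PYCR1 and WARS1 (all rows 1.66%). In endoplasmic reticulum chaperones and degradation, 8 of 29 were called higher than in CPA and 1 lower (DERL3), with a median of 0.59. Of all rows 1.94% were called higher and 2.82% lower. Of the 8, HSPA5, HSP90B1, CALR and DNAJB11 are the rows that met the rule and were left out by name, so their calls are no separate evidence. The other 4 were PDIA4, DNAJB9, HYOU1 and DERL2, and 2 of 15 were called higher at rows opposite. Against untreated cells 10 of 29, the same left-out rows among them, and 8 of 15 at rows opposite were called higher (all rows 1.66%). The medians were 0.71 and 0.75. With CPA alone against untreated cells, 2 of 29 and 3 of 15 were called higher, with medians of 0.14 and 0.45. Of all rows 2.85% were called there in either direction. Beside these, 0 of 15 NRF2 genes were called higher than in CPA and 1 lower (AKR1C2), with a median of 0.18 (all rows 1.94% higher and 2.82% lower). At rows opposite 1 of 7 was called higher, that of SLC7A11. Against untreated cells 0 of the 15 were called higher, with a median of 0.08 (all rows 1.66%). At rows opposite 2 of 7 were called higher there, those of GCLC and SLC7A11, with a median of 0.32. In heat shock 0 of 16 were called against CPA at their own rows, median 0.02, and 0 of 5 at the rows opposite. Against untreated cells 0 of 16 and 0 of 5 were called, with medians of −0.292 and −0.115 (all rows 2.9% in either direction).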

How the data were processed

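RNA from 12 HSC-3 libraries was sequenced as paired ends. The authors deposited raw read counts per gene, made with STAR 2.5.2a and HTSeq-count 0.6.1p1 on GRCh38 with Ensembl release 84, with strand taken into account, per the series' design text. Trimmomatic is given as version 0.32 there and as 0.36 in the submitters' processing notes. The 5 HTSeq closing rows were dropped before scaling and testing. They hold the reads in no gene, and gene rows held 3.59 to 9.40% of the uniquely placed reads.

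Groups came from the labels. Library sizes were scaled by TMM factors over the 14911 rows with at least 5 reads in at least 50% of the libraries of a group, as in the study's filter (a share of 0.5). CPM, group means and SDs (n = 4) were computed from these. All 12 libraries were fitted by group in edgeR 4.0.16 (quasi-likelihood test, R 4.3.3) with Benjamini-Hochberg adjustment over all 14911 rows. A row was called at an adjusted p under 0.05 and at least 1.5-fold. The fit was tested on simulated data. Gene names, exons and opposite strands came from GENCODE 44 on the same build but another release, in which 56558 of the 60675 rows were found. Sequences came from RefSeq (GRCh38.p14). No pair of libraries of a group agreed within sampling noise.

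The rows and the gene lists were chosen with earlier results of these data known. The text names the 25 rows of the highest ratio, the 6 of the highest level and those lost without CPA + synta-66 samples 1 and 4. Values in every library are given for the 8 of the highest ratio, the 4 of the highest level and the 3 farthest above untreated in relation to the spread, and other rows are named to give the gene opposite. Of the 75 rows, 1 is not reported by name here and is left out of the heat map. Alternatives were DESeq2 1.42.0, other scalings, filters and limits, a replicate block and leaving out libraries.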

Additional observations from a re-analysis of the deposited data

Results flagged for a closer look

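A single library stood away from the other 3 of its group in 6 of the 144 group values of the 48 rows named by the rule, by a test of the gap between the end value and its neighbour. Chance alone gives about 1 in 20. ZNF549 held 53.5 CPM in CPA + synta-66 sample 4, where the others held 75.9 to 80.0. PRANCR held 6.05 CPM in CPA sample 2 (others 12.3 to 13.2), PHLDA1-AS1 948.8 in CPA sample 2 (others 1060 to 1074) and KCNAB1 128 in CPA sample 2 (others 70.2 to 78.2). ENSG00000280158 held 235 CPM in untreated sample 3 (others 182 to 191), and PTP4A1 held 20.9 there (others 12.6 to 14). PRANCR, PHLDA1-AS1 and KCNAB1 still met the rule without CPA sample 2.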

How the results depend on the processing

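The number of rows meeting the rule, 75, stayed within 1.5 times under DESeq2-style (RLE) factors (82), upper-quartile scaling (103), TMM over all rows (78), which was added after seeing the data, and group medians (90, of which 56 are shared). With medians ERFE and CEBPB fell out, since their median over the 12 libraries is under the floor of 10 CPM. It moved to 39 with total gene reads without mitochondrial rows (29 shared), and to 138 and 42 with floors of 5 and 20 CPM. A CPA to untreated window of 0.9 to its reciprocal gave 27, and a ratio of at least 2 gave 6. Without CPA + synta-66 samples 1 and 4 the number was 115 (56 shared). Without these and untreated sample 3, an alternative added after seeing the data, it was 121 (52 shared). Leaving out each library gave 77 to 98. The cause was not tested beyond what each limit sets by itself. The ratios of the 48 named rows kept their direction under 19 settings, from 1.107 to 4.89. Without a minimum fold, 655 rows were called between CPA and untreated in place of 425, and 1 coding row opposite (PC) against untreated cells in place of 0. The other counts of rows called stayed within 1.5 times. No rows were called with total gene reads without mitochondrial rows or TMM over all rows, since the tests were not run under these scalings.

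The labels do not say that a sample number marks a shared batch. The deviations of same-numbered libraries correlated at −0.13 to 0.21 (median 0.05) and those of other libraries of different groups at −0.20 to 0.22 (median −0.02). Since not every same-numbered pair correlated, the numbers were not taken to pair the libraries, although 6 of 12 libraries correlated best with their own number, a hint from the data and not from the design. With a replicate block, 723 rows were called in CPA + synta-66 against CPA (710 without it), 418 against untreated (433), and 441 in CPA against untreated (425), and 3 and 0 coding rows opposite. The 75 rows had 14 to 7541 reads in a library, with a median of 96, so differences at the lowest rows are the least precise.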
